A study of Mus musculus with 3 samples.

Results

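The genes described here encode 3 families of enzymes that attach a polar group to a small molecule: the glutathione S-transferases (Gst), the UDP-glycosyltransferases (Ugt) and the sulfotransferases (Sult). They were chosen by name, as every non-control probe of the array whose gene name was Gst of the alpha, kappa, mu, omega, pi, theta or zeta class, Ugt of class 1, 2 or 3, or a numbered Sult. This gave 57 probes for 45 genes, of 32745 named probes for 19862 genes on the array. The Gst family had 20 genes on 26 probes, the Ugt family 14 genes on 18 probes and the Sult family 11 genes on 13 probes. The RNA came from cells labelled mPTEC, an abbreviation that the labels do not spell out, isolated from the kidneys of 1-month-old male mice. One sample was taken from freshly isolated cells (day 0), one after 1 day and one after 3 days on culture dishes, in DMEM/F12 with insulin-transferrin-selenium, non-essential amino acids, hydrocortisone, antibiotics and 1% serum. The labels name no strain and no genotype, and do not say how many animals were pooled.

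Conjugation makes drugs, hormones and products of oxidation more soluble, so that transporters can carry them into urine or bile. Glutathione S-transferases use glutathione, UDP-glucuronosyltransferases use UDP-glucuronic acid and sulfotransferases use PAPS, the activated form of sulfate. In the kidney the proximal tubule is known for this work, and it also breaks glutathione conjugates down to mercapturic acids.

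Each day was measured on 1 array, so no difference below has a replicate check and no p-value is given. Values are signals, that is, the processed intensity of a probe divided by the 75th percentile of its array, and a gene with several probes is given by the probe with the highest mean signal unless another is named. Signals of different probes are not comparable with each other, so only days are compared. The 75th percentile was 1184 intensity units on day 0, 1509 on day 1 and 1515 on day 3, and between 18615 and 18873 genes were well above background on each array. For probes printed in many copies, a ratio of 2 arrays had a spread of 1.15-fold from spot to spot. Between probes of the same gene the spread was wider: the SD of their log2 ratios, day 3 over day 0, was 0.47 for the median gene. A difference of at least 4-fold, a log2 ratio of 2, was used as the mark of a large difference. Beside the cells' label, 10 markers of the proximal tubule were read. All 10 were well above background on every day, but so were most genes of the array, so this does not test the label. The summed signal of the 10 markers was 865 on day 0, 147 on day 1 and 14.0 on day 3.

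Large parts of the Ugt family and single members of the other families had far lower signals after culture, and no member was 4-fold higher on day 3. On day 1 against day 0, 12 of the 44 members tested were at least 4-fold lower, a share of 27.3%, against 5.15% of all genes. One member, Gsta4, was at least 4-fold higher, against 3.37% of all genes. On day 3 against day 0, 16 of 44 were at least 4-fold lower, a share of 36.4%, against 7.81% of all genes. None was at least 4-fold higher on day 3 than on day 0, against 5.32% of all genes. On day 3 against day 1, 5 of 44 were at least 4-fold lower, against 1.27% of all genes, and none was 4-fold higher, against 1.62%. The median log2 ratio of the members was -0.55 for day 1 over day 0 and -0.83 for day 3 over day 0, while that of all genes was -0.11 in both. These counts depend on how the arrays are put on one scale. With the spike-in controls in place of the 75th percentile, the members gave 11 lower and 3 higher on day 3 against day 0. On the same scale, 937 of all genes were lower and 1722 higher, in place of 1493 lower and 1017 higher, and the median of all genes moved to 0.37. With reference genes the split of all genes was 1859 lower and 829 higher, and with the median spot 1100 lower and 1416 higher.

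**Figure D1:**
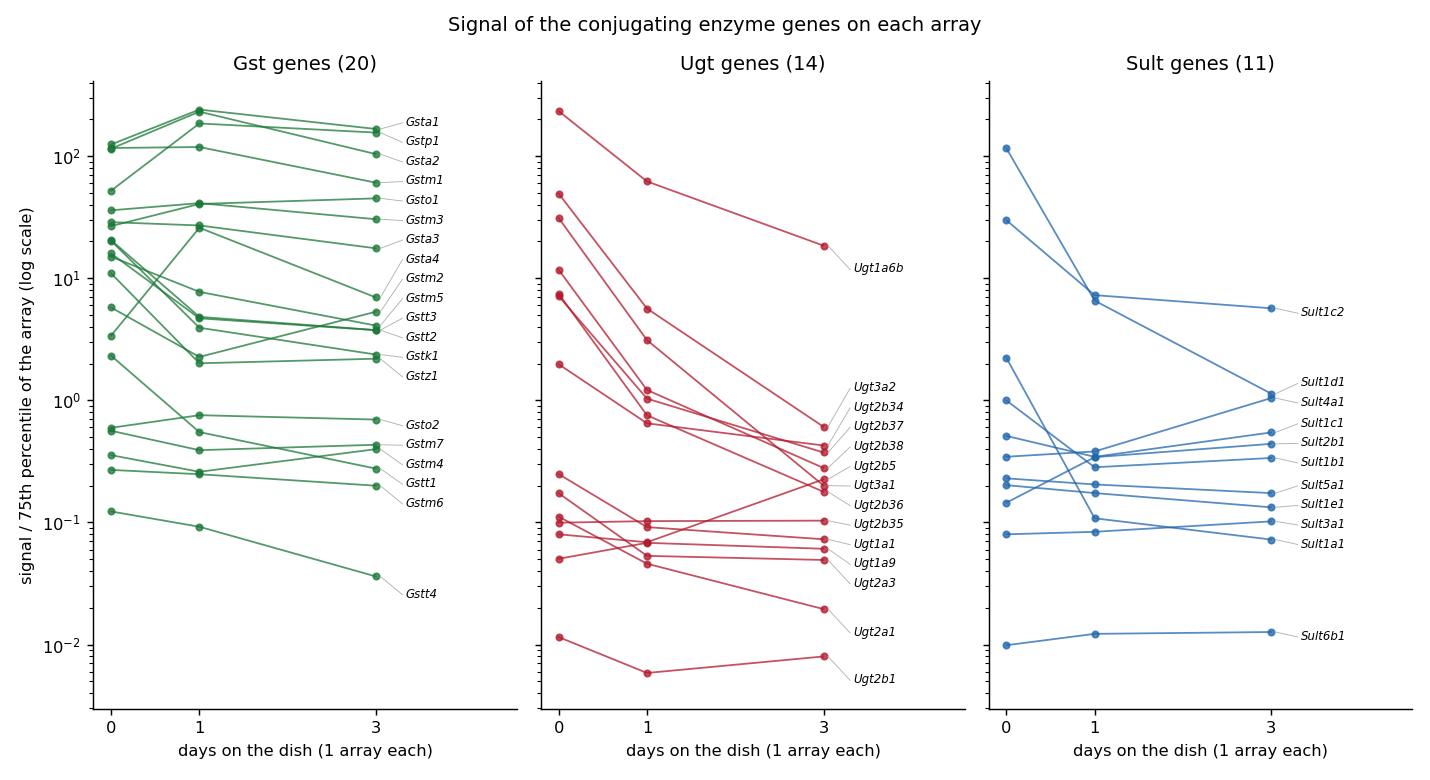
Signal of each of the 45 genes (vertical axis, log scale, in units of the array's 75th percentile) on days 0, 1 and 3 (horizontal axis), with 1 point per array and no error bars because each day has 1 array; heights of different genes are not comparable, and Ugt2b1 was not well above background on any array. Most Ugt lines run down across both steps, as for Ugt3a1 (31.0, 3.11 and 0.200), while many Gst lines stay level and Gsta4 peaks on day 1 (25.9).

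The families differed in how many members moved. On day 3 against day 0, 8 of 13 Ugt genes passed 4-fold downward, and the family's median log2 ratio was -2.51. In the Gst family 5 of 20 were 4-fold lower, with a median of -0.40, and in the Sult family 3 of 11, also with a median of -0.40. The Ugt median stayed negative under the other scalings, between -2.73 with reference genes and -2.03 with spike-in controls. The medians of the Gst and Sult families turned to 0.08 each with spike-in controls. The direction of those medians therefore depended on the scaling. Of all 44 members, 23 were lower at both steps, 6 were higher at both, 8 were higher on day 1 and then lower on day 3, and 7 the other way round. Of the 16 genes 4-fold lower on day 3, 14 had the larger step between day 0 and day 1, and 2, Ugt3a1 and Ugt3a2, had it between day 1 and day 3. These splits were not counted over all genes, and signs of ratios near 0 turned with the scaling. Over all genes, 973 were 4-fold lower on day 1 than on day 0 and 242 on day 3 than on day 1. Having more genes 4-fold lower at the first step than at the second is therefore not particular to the members.

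**Figure D2:**
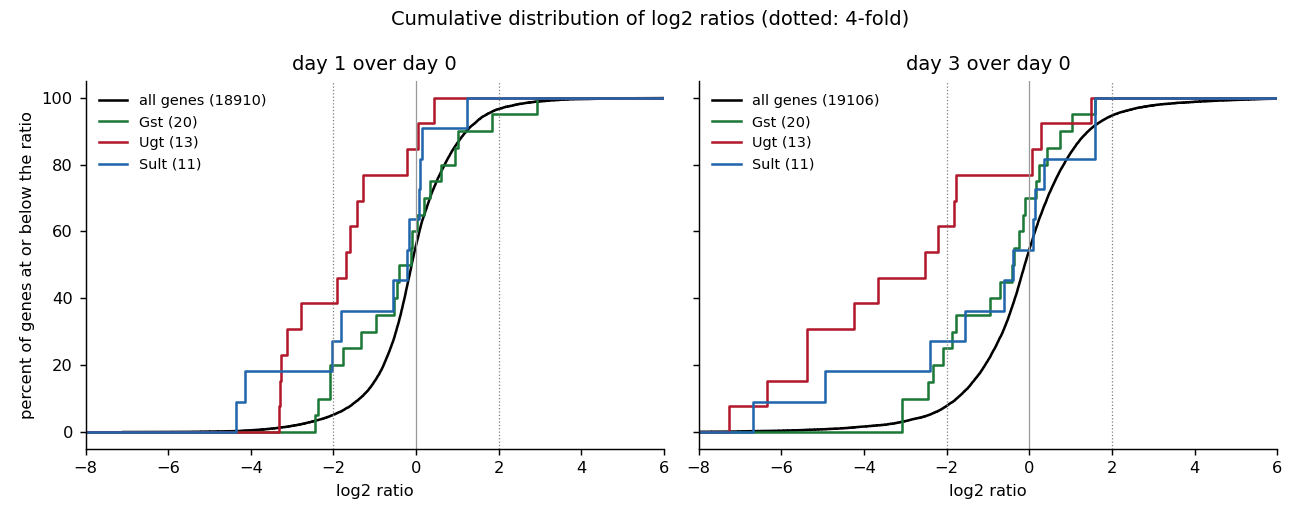
Percent of genes (vertical axis) at or below each log2 ratio (horizontal axis) for the Gst, Ugt and Sult families and all genes tested, day 1 over day 0 at left and day 3 over day 0 at right; dotted lines mark 4-fold. On day 3 the Ugt curve crosses the lower 4-fold line at 61.5%, against 25.0% for Gst, 27.3% for Sult and 7.81% for all genes.

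The alpha class of glutathione S-transferases, whose members detoxify products of lipid peroxidation, held the 1 gene that was 4-fold higher. Gsta4, known for conjugating the lipid aldehyde 4-hydroxynonenal, had signals of 3.38 on day 0, 25.9 on day 1 and 6.95 on day 3. Its probe was printed in many copies, of which 9 were used on day 0, 9 on day 1 and 10 on day 3. The copies ranged from 3.27 to 3.86 on day 0, from 24.6 to 29.2 on day 1 and from 5.97 to 7.44 on day 3, so no copy of one day overlapped those of another. The copies share 1 RNA sample each day and show the precision of the array alone. Gsta4 was 7.65-fold higher on day 1 than on day 0, rank 217 from the top of 18910 genes, and 2.05-fold higher on day 3 than on day 0. The Gsta4 probe lists 1 gene and lies at chr9:78046172-78047344 on the plus strand of mm9, across an exon junction.
Gsta4: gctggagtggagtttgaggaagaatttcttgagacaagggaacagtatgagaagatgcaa

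Gsta1 had signals of 124, 240 and 167 on days 0, 1 and 3, and Gsta2 had 115, 231 and 104. On day 1 both were higher than on day 0, Gsta1 by 1.93-fold and Gsta2 by 2.01-fold. On day 3 against day 0 they lay within 2-fold, at log2 ratios of 0.42 for Gsta1 and -0.15 for Gsta2, and the sign of the Gsta2 ratio turned with the spike-in scaling. These are not 2 separate measurements, because each probe lists the transcripts of Gsta1, Gsta2 and Gm10639. The Gsta1 probe lies at chr9:78083844-78087325 on the plus strand and the Gsta2 probe at chr9:78181644-78181703 on the minus strand of mm9. Both sequences are shown because they share a stretch of 28 bases, in capitals, with 27 identical bases.
Gsta1: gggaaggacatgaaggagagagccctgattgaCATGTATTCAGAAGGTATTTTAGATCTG
Gsta2: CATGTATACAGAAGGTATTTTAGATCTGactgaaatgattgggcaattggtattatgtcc

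Gsta3, on chromosome 1 and apart from the other alpha genes on chromosome 9, had signals of 28.7, 27.0 and 17.6 on days 0, 1 and 3. It differed little on day 1, and its log2 ratio of day 3 to day 0 was -0.71, with -1.25 for its other probe. All 4 alpha genes had lower signals on day 3 than on day 1, with log2 ratios from -1.90 for Gsta4 to -0.53 for Gsta1.

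Gstp1, the pi-class enzyme, was read by a probe at chr19:4035486-4035545 on the minus strand of mm9. It had signals of 52.1 on day 0, 185 on day 1 and 156 on day 3. Both culture days were above day 0, by 3.55-fold on day 1 and 2.99-fold on day 3. This probe lists Gstp1 and its near copy Gstp2. A dimmer probe that lists Gstp1 alone had signals of 11.2, 50.6 and 34.8, 4.50-fold higher on day 1 and 3.10-fold higher on day 3 than on day 0. With spike-in scaling the brighter probe passed 4-fold on day 3. The omega-class genes, whose enzymes reduce dehydroascorbate and form mixed disulfides, moved less. Gsto1 had signals of 26.7, 40.5 and 45.0, which is 1.52-fold higher on day 1 and 1.69-fold higher on day 3 than on day 0. Gsto2 gave no single direction, since its brighter probe had a log2 ratio of 0.22 and its dimmer probe one of -0.74 for day 3 over day 0.

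The mu class lies as 1 cluster on chromosome 3, and 6 of its 7 genes were within 2-fold on day 3 against day 0. Gstm1 had signals of 116, 119 and 60.5 on days 0, 1 and 3, and was 1.92-fold lower on day 3 than on day 0. Gstm3 had 36.0, 41.2 and 30.4, and was 1.18-fold lower. Gstm2 dipped on day 1, with 5.75, 2.27 and 5.31. Gstm5 was the one outside 2-fold, with signals of 15.0, 7.73 and 4.09, and was 3.67-fold lower on day 3 than on day 0. The log2 ratios of Gstm4, Gstm6 and Gstm7 lay between -0.43 and 0.16 on day 3, though a dimmer probe of Gstm7 was 3.66-fold lower. The brighter Gstm7 probe lists no RefSeq transcript and the dimmer one lists Gstm7, so the level value is not the safer of the pair. The median of the mu class, -0.38, turned to 0.10 with spike-in scaling.

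Outside these classes the Gst genes were lower on both culture days. Gstk1, the kappa-class enzyme of mitochondria and peroxisomes, had signals of 20.2, 3.93 and 2.37 on days 0, 1 and 3. It was 5.15-fold lower on day 1 and 8.53-fold lower on day 3 than on day 0, by a single probe that lists no RefSeq transcript. Gstz1, the zeta-class enzyme that isomerises maleylacetoacetate in tyrosine breakdown, had 10.9, 2.01 and 2.19. It was 5.45-fold lower on day 1 and 5.00-fold lower on day 3 than on day 0, so nearly all of its difference lay in the first step.

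The 4 theta-class genes, which sit together on chromosome 10, were all lower on both culture days than on day 0, with a median log2 ratio of -2.27 on day 3. Gstt1, which acts on small halogenated compounds, had signals of 2.32, 0.549 and 0.276, and was 8.41-fold lower on day 3 than on day 0. Gstt3 had 20.5, 4.82 and 3.76, and was 5.45-fold lower. Gstt2 had 15.9, 4.69 and 3.75, and was 4.25-fold lower. Gstt4 had 0.123, 0.0922 and 0.0361, and was 3.41-fold lower. Its larger step came after day 1 on this probe and before day 1 on its other probe, which was 2.50-fold lower on day 3 than on day 0. With spike-in scaling Gstt2, Gstt3 and Gstz1 were under 4-fold lower on day 3, while Gstt1 and Gstk1 stayed past it. The day 1 calls of Gstt1 and Gstt3 were also lost on that scale.

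**Figure D3:**
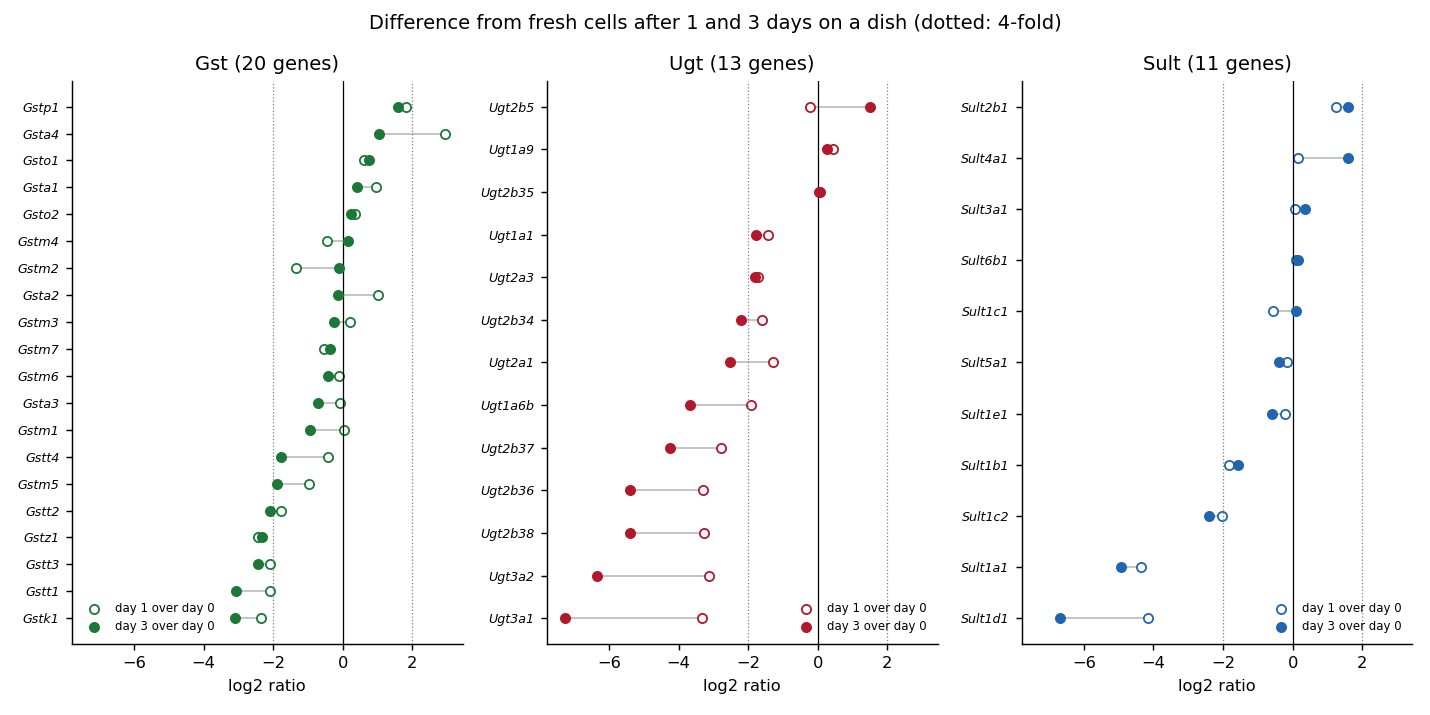
Log2 ratio (horizontal axis) of day 1 over day 0 (open circles) and day 3 over day 0 (filled circles) for the 44 members tested, 1 gene per row, with dotted lines at 4-fold. Ugt3a1 has the lowest ratio, -7.28 on day 3, and Gsta4 is the one member past the upper line, at 2.94 on day 1.

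The largest differences among the UDP-glycosyltransferases were in the Ugt3a pair on chromosome 15. The human enzymes of this class are known to use sugar donors other than UDP-glucuronic acid. Ugt3a1, read by a probe at chr15:9244274-9244333 on the plus strand of mm9, had signals of 31.0 on day 0, 3.11 on day 1 and 0.200 on day 3. It was 9.98-fold lower on day 1 and 155-fold lower on day 3 than on day 0, rank 25 from the bottom of 19106 genes. It was also 15.5-fold lower on day 3 than on day 1, so both steps were large. Ugt3a2 had signals of 49.2, 5.64 and 0.607. It was 8.72-fold lower on day 1 and 81.1-fold lower on day 3 than on day 0, rank 65 from the bottom. A dimmer probe of Ugt3a2 had 1.46, 0.171 and 0.0317, and was 45.9-fold lower on day 3. It lies across an exon junction at chr15:9280929-9291221 on the plus strand of mm9, lists Ugt3a2 alone, and is shown because it reads the gene at another place than the brighter probe.
Ugt3a2, dimmer probe: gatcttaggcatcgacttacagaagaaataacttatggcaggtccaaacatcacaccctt

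The Ugt2 genes, which glucuronidate steroids, bile acids and drugs, lie in 1 cluster on chromosome 5, and 5 of the 8 tested were at least 4-fold lower on day 3 than on day 0. Ugt2b38 had signals of 11.7, 1.21 and 0.279 on days 0, 1 and 3, and was 41.9-fold lower on day 3 than on day 0. Ugt2b36 had 7.44, 0.754 and 0.178, and was 41.8-fold lower. Ugt2b37 had 7.12, 1.03 and 0.374, and was 19.1-fold lower. The 3 profiles are not independent, since the Ugt2b36 probe also lists Ugt2b37, and the Ugt2b38 probe also lists Ugt2b37 and Ugt2b5. On day 3 against day 1, Ugt2b38 was 4.35-fold and Ugt2b36 4.23-fold lower, and both of these calls were lost with spike-in scaling. The Ugt2b36 call was also lost with reference genes, the median spot, quantile normalization and normexp background correction. The Ugt2b36 probe lies at chr5:87495455-87509913 and the Ugt2b38 probe at chr5:87850627-87850686, both on the minus strand of mm9. They are shown because the array cannot tell the transcripts that share them apart.
Ugt2b36: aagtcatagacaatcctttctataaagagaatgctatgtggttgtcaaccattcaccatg
Ugt2b38: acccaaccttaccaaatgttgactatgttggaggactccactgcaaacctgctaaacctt

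Ugt2b34 had signals of 1.97, 0.648 and 0.426 on days 0, 1 and 3, and was 4.63-fold lower on day 3 than on day 0, a call lost with spike-in scaling and with the median spot. Ugt2a1, first described in olfactory tissue, had 0.111, 0.0459 and 0.0195 on its brightest probe, and was 5.71-fold lower. Its other probes were 2.50-fold and 1.45-fold lower, and all of its probes also list Ugt2a2, so the 4-fold call rests on 1 probe. That call was also lost with normexp background correction, under which the sign of the ratio of day 3 to day 1 turned. Ugt2a3 had 0.173, 0.0532 and 0.0493, and was 3.52-fold lower. In the same cluster the probe that lists Ugt2b5 alone went the other way, with signals of 0.0799, 0.0688 and 0.225. It was 2.82-fold higher on day 3 than on day 0. This rests on 1 dim probe, and the brighter Ugt2b38 probe, which also lists Ugt2b5, was 41.9-fold lower. Ugt2b35 stayed level, with 0.0995, 0.102 and 0.103. Ugt2b1 was not well above background on any array and was not tested.

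Ugt1a enzymes come from 1 locus on chromosome 1, where alternative first exons are joined to shared later exons. The brightest probe named Ugt1a6b lies at chr1:90115472-90115531 on the plus strand of mm9 and lists Ugt1a6a, Ugt1a6b, Ugt1a7c and Ugt1a10, so it reads several products of the locus. It had signals of 233 on day 0, 62.0 on day 1 and 18.5 on day 3, which is 3.76-fold lower on day 1 and 12.6-fold lower on day 3 than on day 0. A probe that lists Ugt1a6b alone, at chr1:90003830-90003889, had 0.136, 0.0742 and 0.0638, and was 2.13-fold lower on day 3 than on day 0. The 2 probes thus agreed in direction and not in size. Ugt1a1, the bilirubin-conjugating enzyme, had signals of 0.248, 0.0915 and 0.0728, and was 3.41-fold lower on day 3 than on day 0. Ugt1a9 had 0.0504, 0.0681 and 0.0608, within 2-fold on both culture days.

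**Figure D4:**
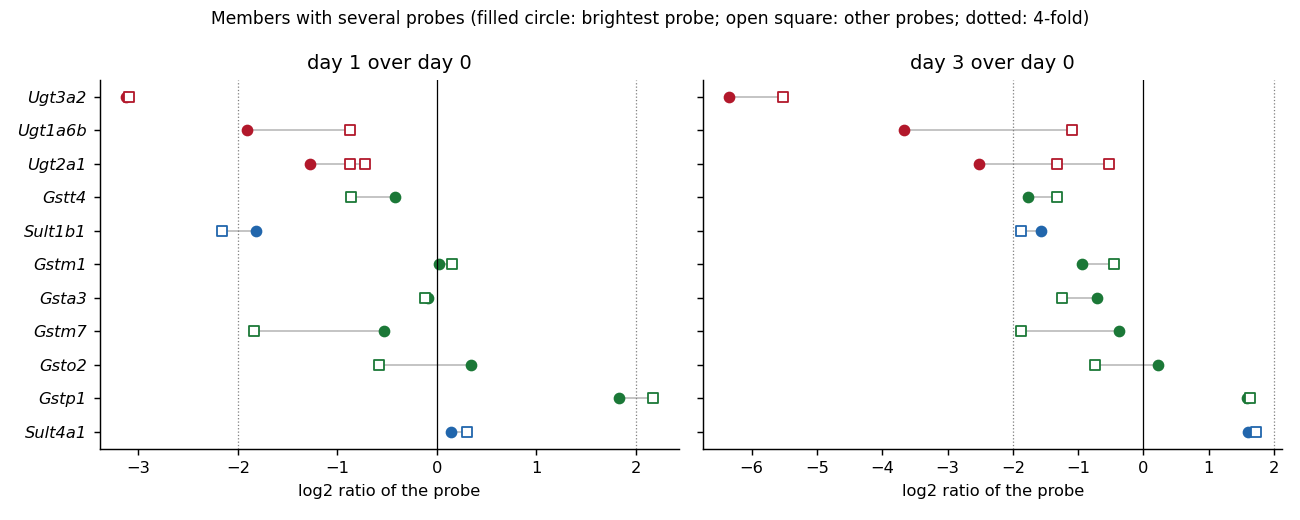
Log2 ratio (horizontal axis) of every probe of the 11 members with more than 1 probe, 1 gene per row, for day 1 over day 0 at left and day 3 over day 0 at right; the filled circle is the brightest probe, open squares are the others and dotted lines mark 4-fold. The probes of Ugt3a2 lie close together on day 1 and at -6.34 and -5.52 on day 3, while those of Ugt1a6b lie at -3.66 and -1.09 and those of Gsto2 on both sides of 0.

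Among the sulfotransferases the 3 genes that were 4-fold lower on day 3 all belonged to class 1, which had 6 members. Sult1d1, which in mice sulfates catecholamines and other phenolic amines, had signals of 116 on day 0, 6.55 on day 1 and 1.13 on day 3. It was 17.7-fold lower on day 1 and 102-fold lower on day 3 than on day 0, rank 52 from the bottom of 19106 genes. Its probe lies at chr5:87984658-87984717 on the minus strand of mm9. Sult1a1, a phenol sulfotransferase read at chr7:133816605-133816664 on the minus strand of mm9, had 2.23, 0.108 and 0.0724. It was 20.6-fold lower on day 1, the largest first step of any member, and 30.8-fold lower on day 3 than on day 0. Sult1c2 had 29.8, 7.26 and 5.67, and was 4.11-fold lower on day 1 and 5.27-fold lower on day 3. Its calls were lost with spike-in scaling on both days. Sult1b1, which sulfates thyroid hormones, had 0.998, 0.283 and 0.337 and was 2.96-fold lower on day 3 than on day 0, or 3.67-fold lower by its other probe. The estrogen sulfotransferase Sult1e1 had 0.202, 0.174 and 0.133, and Sult1c1 had 0.511, 0.344 and 0.546. Both were within 2-fold of day 0 on each culture day.

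A pair of sulfotransferases had higher signals in culture without reaching 4-fold. Sult2b1, which sulfates cholesterol and other hydroxysteroids, had 0.145, 0.342 and 0.440 on days 0, 1 and 3. It was 2.36-fold higher on day 1 and 3.03-fold higher on day 3 than on day 0. Sult4a1, best known from the brain, had 0.345, 0.381 and 1.04, and was 3.03-fold higher on day 3 than on day 0, with 3.31-fold for its other probe. Both passed 4-fold on day 3 with spike-in scaling. Sult3a1 and Sult5a1 had log2 ratios of 0.35 and -0.40 on day 3 against day 0, and the Sult3a1 probe lists no RefSeq transcript. Sult6b1 was near background on the day 0 array, so its ratio of day 3 to day 0 is a bound of at least 1.11-fold.

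Of the members just past the 4-fold mark on day 3 against day 0, Gstt2 was 4.25-fold and Ugt2b34 4.63-fold lower, and just short of it Gstm5 was 3.67-fold and Ugt2a3 3.52-fold lower. All 10 proximal tubule markers were 4-fold lower on day 3 than on day 0, with a median log2 ratio of -5.72. Of the 44 members, 14 had ratios of day 3 to day 0 above 0, against 8670 of 19106 genes. Marker lists of other cells differed between the days too. The summed signal of 4 loop of Henle markers was 425, 96.2 and 20.1 on days 0, 1 and 3, although Cldn16 of that list was 1.84-fold higher on day 3 than on day 0. That of 4 distal tubule markers was 49.0, 2.54 and 1.17, and that of 3 hepatocyte markers 2.69, 0.425 and 0.0948. Markers of principal cells, intercalated cells, podocytes and endothelium had lower sums on both culture days than on day 0. The other lists did not move as wholes. Of 4 mesothelial markers, 2 were at least 4-fold higher on day 3 than on day 0, with a list median log2 ratio of 2.51. The 1 with a ratio below 0 was Wt1, which is also among the podocyte markers and was 3.18-fold lower. The sum of the 4, 1.14, 0.713 and 18.1, came almost wholly from Msln on day 3, at 17.4. That of 4 fibroblast markers was 4.93, 3.95 and 10.3, with Col1a1 7.12-fold and Col1a2 4.02-fold higher on day 3 than on day 0 and Pdgfrb 1.84-fold and Dcn 1.95-fold lower. That of 4 macrophage markers was 1.28, 2.85 and 1.61, with Cd68 5.07-fold higher on day 3 than on day 0, Ptprc 3.00-fold lower and Csf1r and Adgre1 within 2-fold. Among 4 urothelial and keratinocyte markers, with sums of 0.976, 2.54 and 1.80, Krt5 was 3.33-fold higher on day 3 than on day 0 and the other 3 were within 2-fold. Fewer cells of a type and less RNA per cell cannot be told apart in these bulk samples, and the part that a change in cell types has in the members' ratios was not tested.

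The genes around conjugation were then read from 7 lists, for which the shares of all genes given above are the background. For glutathione supply and recycling, 2 of 12 genes were at least 4-fold lower and 2 at least 4-fold higher on day 3 than on day 0. The cystine transporter gene Slc7a11 had signals of 0.0216, 1.05 and 0.849 on days 0, 1 and 3, 39.4-fold higher on day 3 than on day 0. The size of this difference is uncertain, since its day 0 signal was close to background. Its other probes had log2 ratios from 3.46 to 7.28 for day 3 over day 0. Chac1, which degrades glutathione, was 12.0-fold higher on day 3, while Cbs of the transsulfuration pathway was 9.87-fold and Oplah 6.68-fold lower. Gclm, a subunit of the enzyme that starts glutathione synthesis, had 1.11, 4.78 and 3.22, and was 4.31-fold higher on day 1 and 2.91-fold higher on day 3 than on day 0. Its other probe had smaller log2 ratios, 0.97 on day 1 and 0.55 on day 3, both against day 0. The median of this list, -0.29, turned positive with spike-in scaling and with the median spot.

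All 6 genes of mercapturic acid formation were lower on day 3 than on day 0. In 5 of the 6 the difference passed 4-fold, and the list's median log2 ratio was -4.64. Dpep1 had signals of 9.59, 1.72 and 0.184 and was 52.0-fold lower on day 3 than on day 0, and Anpep was 44.5-fold, Nat8 33.2-fold, Acy3 18.6-fold and Ggt1 5.45-fold lower, the Ggt1 call being lost with spike-in scaling. These are brush border peptidases, the N-acetylating enzyme Nat8 and the deacetylating Acy3. For UDP-glucuronic acid the list had a median of 0.60, with none of 6 genes 4-fold lower on day 3. Ugdh, which makes UDP-glucuronic acid, had 5.81, 25.9 and 23.5, and was 4.05-fold higher on day 3 than on day 0, a call lost when the arrays were scaled to reference genes. Its signal was higher in culture while that of most Ugt genes was lower.

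For PAPS and sulfate supply, 2 of 10 genes were 4-fold lower on day 3 by the brightest probe and none was 4-fold higher, with a median of -1.14. Bpnt2 was level by its brightest probe, with a log2 ratio of 0.07 for day 3 over day 0, while its other probes had -0.25 and 2.63. The sulfate transporter gene Slc13a1 had signals of 35.4, 0.899 and 0.557 on days 0, 1 and 3, and the sulfite oxidase gene Suox was 5.60-fold lower on day 3 than on day 0. Papss2, which makes PAPS, was 3.83-fold lower on day 3, but 2 probes disagreed in size. Among 14 other transferases, 4 were 4-fold lower and 2 higher on day 3 than on day 0. Inmt was 61.0-fold, Glyat 13.1-fold, Hnmt 6.46-fold and Mgst1 4.41-fold lower, the Mgst1 call being lost with spike-in scaling and with the median spot, while Nnmt, a nicotinamide methyltransferase, was 32.0-fold and Mgst2 8.15-fold higher. Of 5 efflux pump genes, Abcc1, an exporter of glutathione conjugates, had 1.51, 11.4 and 6.70 and was 4.42-fold higher on day 3 than on day 0. This call of its brightest probe was lost with reference genes. None of the 5 was 4-fold lower by its brightest probe. For Abcg2 that probe had a log2 ratio of -1.44 for day 3 over day 0, and the other probe had -2.02.

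Of 11 genes for regulators of conjugating enzymes, 5 were at least 4-fold lower on day 3 than on day 0 and none was 4-fold higher, with a median of -1.71. Those were the nuclear receptor genes Ppara, 18.8-fold lower, Nr1h4, 15.0-fold, Hnf4a, 10.6-fold, Nr1i2, 6.26-fold, and Nr1i3, 5.03-fold. Hnf4a is also among the 10 proximal tubule markers, and its other probes had log2 ratios of -3.91 and -0.87, so that 1 of its 3 probes was short of 4-fold. The Nr1i3 call was lost with spike-in scaling. Nfe2l2, whose product NRF2 drives the antioxidant response, had 19.9, 25.0 and 21.4 on days 0, 1 and 3, and Keap1, its repressor, had 3.47, 4.40 and 5.73. The dioxin receptor gene Ahr had 0.498, 0.577 and 0.896. Nfe2l2, Keap1 and Ahr were within 2-fold on both culture days by the brightest probe, although another Nfe2l2 probe had a log2 ratio of -2.68 on day 3.

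**Figure D5:**
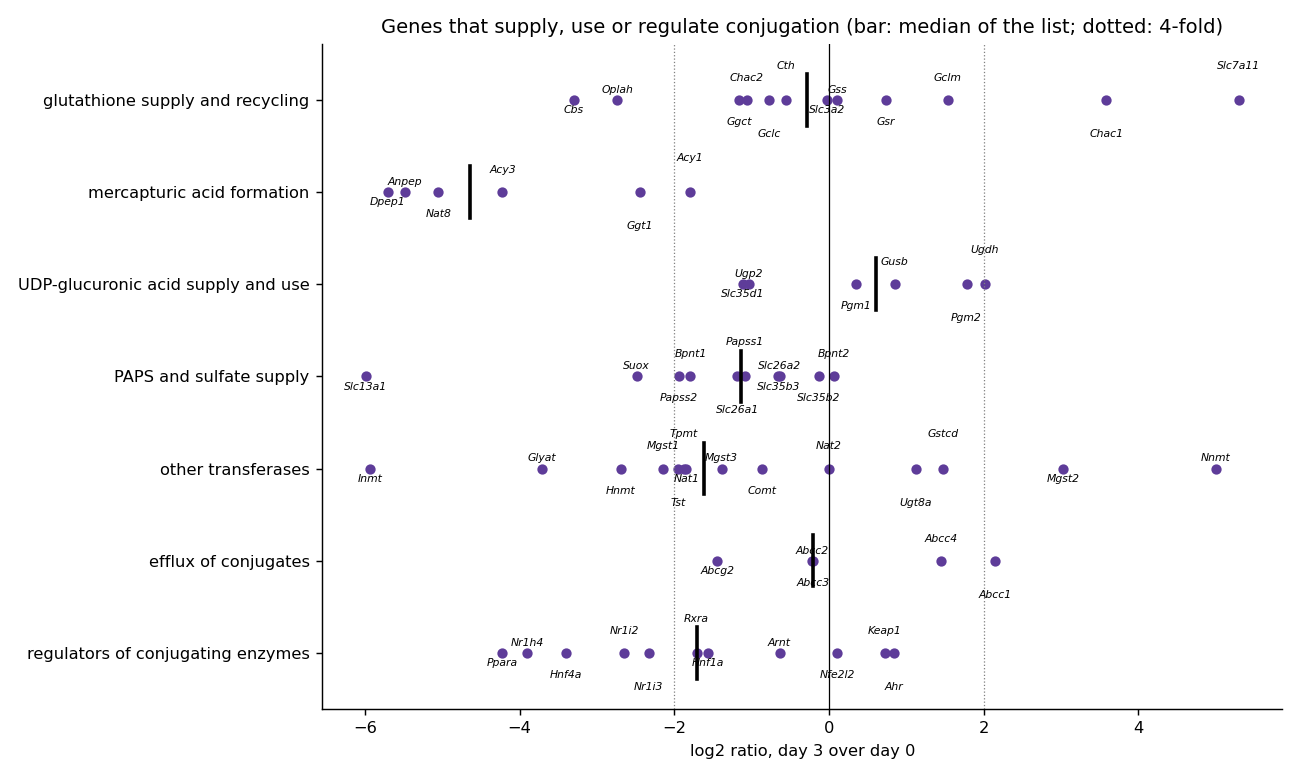
Log2 ratio of day 3 over day 0 (horizontal axis) for each gene of the 7 lists, 1 list per row, with the black bar at the median of the list and dotted lines at 4-fold. The mercapturic acid genes all lie left of 0 with a median of -4.64, while Slc7a11 (5.30) and Nnmt (5.00) lie farthest to the right.

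The 250 bases upstream of the start were taken from RefSeq (GRCm38.p6) for 40 of the 45 members and searched on both strands for 5 short motifs. GTTAAT is the half-site of HNF1, a tubule and liver transcription factor. It was found for 7 of 40 members, a share of 17.5%, against 6.47% of 32536 distinct promoters. These 7 members were Gsta3, Sult1a1, Sult1d1, Ugt1a1, Ugt1a9, Ugt2a3 and Ugt3a1. A member counted where any promoter given for it held the motif, while the share of all is per promoter, so the units differ. The HNF4 motif CAAAGTCCA was in none of the 40, against 0.387% of all. The antioxidant response element core TGACNNNGC was found for 7.50% of these members (Gsta3, Gstm5 and Gstm7), against 10.2% of all promoters. TGANTCA, the AP-1 motif, was in 20.0% against 6.73%, and GCGTG, the core of the xenobiotic response element, in 17.5% against 28.3%. The 8 members with the AP-1 motif were Gstm5, Gstp1, Sult1c1, Sult2b1, Ugt2b1, Ugt2b35, Ugt2b37 and Ugt2b38. Of the 13 members with a promoter that were 4-fold lower on day 3 than on day 0, 3 held the HNF1 half-site and 2 the AP-1 motif. A match describes the letters only. The promoters of Ugt3a1, Sult1d1 and Gstp1 are shown because Ugt3a1 and Sult1d1 had the lowest ratios of day 3 to day 0 and Gstp1 was higher on both culture days by both of its probes. Capitals mark GTTAAT or its reverse complement in Ugt3a1 and in Sult1d1, the reverse complement of GCGTG in Sult1d1, and TGAGTCA and GCGTG in Gstp1. They lie at chr15:9279579-9279828 on the plus strand, chr5:87569007-87569256 on the minus strand and chr19:4037913-4038162 on the minus strand of GRCm38.p6.
Ugt3a1 promoter: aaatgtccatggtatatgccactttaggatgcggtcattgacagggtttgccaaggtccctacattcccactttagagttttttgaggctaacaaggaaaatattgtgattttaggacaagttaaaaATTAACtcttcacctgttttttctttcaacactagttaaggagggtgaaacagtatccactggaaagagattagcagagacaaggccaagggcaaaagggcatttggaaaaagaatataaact
Sult1d1 promoter: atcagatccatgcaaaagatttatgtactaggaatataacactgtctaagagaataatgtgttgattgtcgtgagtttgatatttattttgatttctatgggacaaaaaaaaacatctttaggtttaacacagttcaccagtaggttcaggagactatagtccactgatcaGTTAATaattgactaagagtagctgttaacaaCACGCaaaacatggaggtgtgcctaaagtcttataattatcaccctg
Gstp1 promoter: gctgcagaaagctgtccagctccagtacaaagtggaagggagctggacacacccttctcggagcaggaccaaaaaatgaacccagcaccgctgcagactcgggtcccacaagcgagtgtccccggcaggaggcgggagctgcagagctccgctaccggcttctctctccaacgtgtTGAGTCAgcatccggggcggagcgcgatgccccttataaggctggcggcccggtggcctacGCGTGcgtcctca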

How the data were processed

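Cy3-labelled RNA of 3 samples was hybridised to 1 Agilent 1-colour array per day. Per the file headers, the authors' scanner software was Feature Extraction 10.5.1.1, while the submitters' processing notes name 9.1. The deposited array files hold each spot's processed signal, an intensity that is background-subtracted and not normalized between arrays, and flags of other kinds. Per the file headers a multiplicative trend correction was fitted on the arrays of day 0 and day 1 but not of day 3. The authors' value table is a ratio, the signal over the array's 75th percentile, and all its 43379 values per array lay within 0.001 of that ratio.

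Here each processed signal was divided by the array's 75th percentile. Control and outlier spots were left out, copies of a probe were averaged on the log2 scale, and the probe with the highest mean stood for a gene. Probes were named through RefSeq, 26888 by accession, 5025 by symbol and 832 by synonym, with 8429 unnamed. Of the member probes 45 list 1 gene, 9 list several and 3 list none. Probe coordinates are mm9, per the file headers, and whether a probe lies in an untranslated region was not analysed here. A gene was tested where well above background on at least 1 array of a comparison. A gene below it on the other array is given as a bound against the lowest signal well above background, 0.936% to 1.14% of the 75th percentile. With 1 array per day there is no test, and precision is limited by that number. Members at least 4-fold apart in any comparison are named with each day's value, others by class. Members and lists were chosen with earlier results of these data known. Alternatives were 3 other scalings, quantile normalization and normexp correction with offset 50 (limma 3.58.1 in R 4.3.3), other probe and filter rules, the value table, and folds of 2 and 8. Those on current symbols and on probes that list 1 gene were chosen after seeing the data. The steps were tested on simulated data.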

Additional observations from a re-analysis of the deposited data

How the results depend on the processing

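The direction of the members' median log2 ratio was kept under every alternative tried in all 3 comparisons, although 1 scaling brought it near 0. Scaled to the spike-in controls, the median for day 3 over day 0 was -0.35 and that for day 3 over day 1 was -0.0445. On that scale 3 members (Gstp1, Sult2b1 and Sult4a1) were 4-fold higher on day 3 than on day 0, against 9.01% of all genes. On day 3 against day 1, 3 of 44 members were 4-fold lower, against 0.810% of all genes, and 1, Ugt2b5, higher, against 2.43%. Centred on the median spot, 2 of 44 members, Gsta4 and Gstp1, were 4-fold higher on day 1 than on day 0, against 4.46% of all genes. At 2-fold, 20 members were lower on day 1 than on day 0, against 15.3% of all genes, and 4 higher, against 13.5%. On day 3 against day 0, 5 were higher, against 16.5%, and on day 3 against day 1, 11 were lower, against 8.07%, and 3 higher, against 6.96%. At 8-fold, 6 were lower on day 1 than on day 0, against 1.87% of all genes, and 0 higher, against 1.09%. On day 3, 10 were lower than on day 0, against 3.27%, and 2 lower than on day 1, against 0.342%. A setting chosen after seeing the data kept the 34 members whose probe lists 1 gene. Of these, 9 were 4-fold lower on day 1 than on day 0, against 5.15% of all genes. On day 3, 11 were 4-fold lower than on day 0, against 7.81%, and 3 were 4-fold lower than on day 1, against 1.27%. Of 1420 values of single genes under the alternatives, 1300 moved by less than the SD between probes of a gene and 120 by more. This split does not show how firm single genes are. The 3 other scalings shift all genes of a comparison by the same amount. The value table, the filter rules and the choices of members left nearly all ratios as they were. No paired analysis was possible because each day has 1 array and no result comes from a test. Depth has no meaning for these arrays, and signals near 1% of the 75th percentile, such as those of Sult6b1, are close to background.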

Other observations

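Several members lie in gene clusters, and the genes at the edges of the clusters did not all move with them. Beside Ugt3a1 and Ugt3a2, the neighbour Lmbrd2 had log2 ratios of 0.22 for day 1 over day 0 and 0.04 for day 3 over day 0, and Capsl had -0.92 and 1.37. Beside the cluster of Ugt2 and Sult1 genes on chromosome 5, Ythdc1 had 0.34 and -0.14, and Csn1s1 had 1.61 and 1.72. The theta-class genes lie between Ddt, with -1.33 and -1.58, and Mif, with 0.57 and 0.11. The mu-class genes lie between Eps8l3, with -1.06 and -1.11, and Ampd2, with 0.95 and 0.80. Beside Gsta4, Gsta1 and Gsta2 on chromosome 9, Cilk1 had -0.72 and -0.67, and Dppa5a had 2.63 and -0.01. Dppa5a thus had its highest signal on day 1, as these 3 alpha genes did. Next to Sult1a1, Sgf29 had 0.89 and 0.36 and Slx1b had 0.08 and 0.50. The reverse was seen at Sult5a1, at -0.17 and -0.40, whose neighbour Dpep1 had -2.48 and -5.70. Neighbours were taken as the nearest measured genes in the RefSeq order, and each ratio rests on 1 array per day.

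Within the chromosome 5 cluster the log2 ratios of day 3 to day 0 ran from -6.68 for Sult1d1 to 1.50 for Ugt2b5. The value of Ugt2b5 comes from 1 dim probe, and the Ugt2b38 probe, which also lists Ugt2b5, stood at -5.39. Within the locus of Sult1c2 and Sult1c1 on chromosome 17 the log2 ratios on day 3 were -2.40 and 0.09, and the neighbour Sgo1 stood at 5.27.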
